A study of Rattus norvegicus with 18 samples.

Results

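Ephx2 encodes soluble epoxide hydrolase, and its RNA level was followed through 18 libraries of rat heart. It is 1 of the 37262 genes listed, taken by its Ensembl identifier, ENSRNOG00000017286. The pairing of that identifier with the symbol Ephx2 was given with the choice of the gene. It could not be checked here, because the RefSeq table used (assembly GRCr8) paired 0 of the identifiers in the files with a symbol. In that assembly the nearest protein-coding genes are Adam2 on one side and Chrna2 on the other, and 0 other entries overlap Ephx2. The promoter table from RefSeq held 0 entries for Ephx2.

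The libraries came from rRNA-depleted total RNA of heart tissue, although their titles read mRNAseq. SHR, the spontaneously hypertensive rat, is an inbred strain that develops high blood pressure, and WKY, the Wistar-Kyoto rat, is its normotensive counterpart. There were 3 groups of 6 libraries each: WKY, SHR treated with NS, called SHR below, and SHR treated with QDG. Both SHR groups thus carry the hypertensive strain background and differ by what they were given. NS and QDG are not spelled out in the labels, which give no age, dose or duration, and leave unsaid whether WKY also received NS. If it did not, strain and NS cannot be told apart when SHR is set against WKY. The labels count 6 per group but tie no library to an animal of its own, so each p-value refers to variation among these libraries, which may be technical. The heart label could not be checked against marker genes, since the identifiers carry no names. The title of the series sets the comparison in the context of heart remodelling under hypertension.

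Soluble epoxide hydrolase breaks down epoxy fatty acids. Cytochrome P450 epoxygenases make these lipids, among them the epoxyeicosatrienoic acids, from arachidonic acid and related fatty acids, and the hydrolase adds water to the epoxide ring to give a diol. Epoxyeicosatrienoic acids relax arteries, in large part through potassium channels of smooth muscle, and the diols are mostly less active. The enzyme is found in the cytosol and in peroxisomes, and a separate domain of the same protein removes phosphate from lipid phosphates. Inhibitors of the enzyme have been studied in hypertension and in heart disease.

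Ephx2 was higher in both SHR groups than in WKY, by 24.3% in SHR given NS and 27.7% in SHR given QDG, and no difference between those 2 groups was detected. The levels are in FPKM, fragments scaled to gene length and to library size, a unit read from the values because the files do not name it. In the WKY libraries Ephx2 stood at 25.3, 24.7, 22.4, 21.3, 23.0 and 24.7 FPKM in replicates 1 to 6, with a median of 23.8. In SHR it stood at 31.2, 28.6, 30.4, 29.6, 26.6 and 29.4 FPKM, with a median of 29.5. In QDG-treated SHR it stood at 31.6, 31.8, 26.0, 28.6, 32.8 and 29.95 FPKM, with a median of 30.8. All 6 WKY libraries therefore lay below all 12 libraries of the SHR strain, while the 2 SHR groups overlapped. With n = 6 per group, the mean ± SD was 23.6 ± 1.57 FPKM for WKY, 29.3 ± 1.59 for SHR and 30.1 ± 2.52 for the treated rats. In heart tissue, more cells that express the gene and more RNA per cell cannot be told apart.

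**Figure D1:**
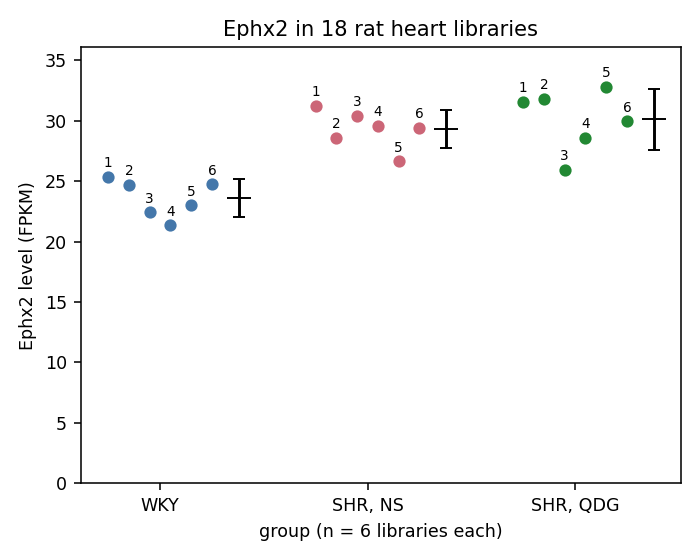
Ephx2 level in FPKM (vertical axis, from 0) in each of 18 heart libraries by group; each point is 1 library with its replicate number, and the bar beside each group is its mean ± SD (n = 6). The WKY points reach at most 25.3 FPKM, below every point of the SHR given NS (from 26.6) and of the SHR given QDG (from 26.0).

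Comparing SHR with WKY asked whether the hypertensive and the normotensive heart differ in the level of this enzyme's RNA. The SHR mean was 24.3% above the WKY mean, a difference of 5.72 FPKM. On the log2(FPKM + 1) scale, which slightly understates a change in FPKM at this level, the log2 fold change was 0.30 (SE 0.06, 95% confidence interval 0.18 to 0.42), or 1.23-fold with an interval of 1.13 to 1.34. The limma adjusted p was 0.000700 over the 17397 genes tested. SHR was higher in 36 of 36 pairs of libraries (exact permutation test, two-sided, p = 0.00216, which is the lowest value 6 against 6 can give, and 0.00325 after Benjamini-Hochberg adjustment over 3 comparisons). Ephx2 was chosen with earlier results of these data known, and the exact test does not allow for that choice. The nearest libraries were SHR replicate 5 at 26.6 and WKY replicate 1 at 25.3 FPKM, 1.29 FPKM apart. That gap is smaller than the SD within either group.

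A rise of this kind was common. Between SHR and WKY 24.8% of the tested genes were called at an adjusted p under 0.05, and 12.2% were called as higher in SHR. The 6 values of each group did not overlap for 12.5% of the tested genes. By p-value Ephx2 ranked 1311 of 17397, and by the size of its log2 fold change 3299. Among the 4306 called genes the median size of the log2 fold change was 0.34, and 58.3% changed by more than Ephx2.

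Comparing QDG-treated SHR with SHR given NS asked whether treatment altered Ephx2 in the hypertensive heart. The mean was 2.74% higher after QDG, a difference of 0.803 FPKM that is smaller than the SD of either group. The log2 fold change was 0.04 (SE 0.06, 95% confidence interval -0.09 to 0.16; limma adjusted p = 0.885), which is 1.02-fold with an interval of 0.942 to 1.115. QDG libraries were higher in 24 of 36 pairs (two-sided exact permutation p = 0.552, adjusted 0.552). A p of this size does not show that the groups were alike. The interval leaves room for a fall to 0.942-fold or a rise to 1.115-fold, and it does not reach a fall as large as the difference between SHR and WKY. Of the tested genes 0.293% were called in this comparison, 36 higher and 15 lower after QDG (46 and 31 after median centring), and Ephx2 ranked 10859 of 17397 by p-value.

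The coefficient of variation of Ephx2 between libraries was 8.38% in QDG-treated SHR, 5.42% in SHR and 6.65% in WKY (n = 6 each). QDG replicate 3 was the lowest of the 12 libraries of the SHR strain at 26.0 FPKM, and QDG replicate 5 was the highest of all 18 at 32.8. Without QDG replicate 3 the coefficient of variation in QDG was 5.37% (n = 5). SHR and WKY were not computed without their lowest library, so this value cannot be set against theirs. With libraries rescaled without the 20 most abundant genes the values were 7.57%, 6.92% and 7.15% in the same order. The spread was not tested between groups. Without QDG replicate 3 the log2 fold change of QDG against SHR was 0.08 and still not called (limma adjusted p = 0.668).

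QDG-treated SHR against WKY uses the same WKY libraries as SHR against WKY and is given beside it, not as separate support. The treated mean was 27.7% above the WKY mean, with a log2 fold change of 0.34 (SE 0.06, 95% confidence interval 0.22 to 0.46; limma adjusted p = 0.000264), or 1.26-fold. Treated libraries were higher in 36 of 36 pairs (two-sided exact permutation p = 0.00216, adjusted 0.00325). The nearest libraries, QDG replicate 3 and WKY replicate 1, were 0.605 FPKM apart. In this comparison 20.9% of the tested genes were called, 11.7% as higher after QDG, and the groups did not overlap for 10.4%. The order of the group means was therefore WKY, SHR, QDG-treated SHR, and the last 2 did not differ beyond their spread.

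**Figure D2:**
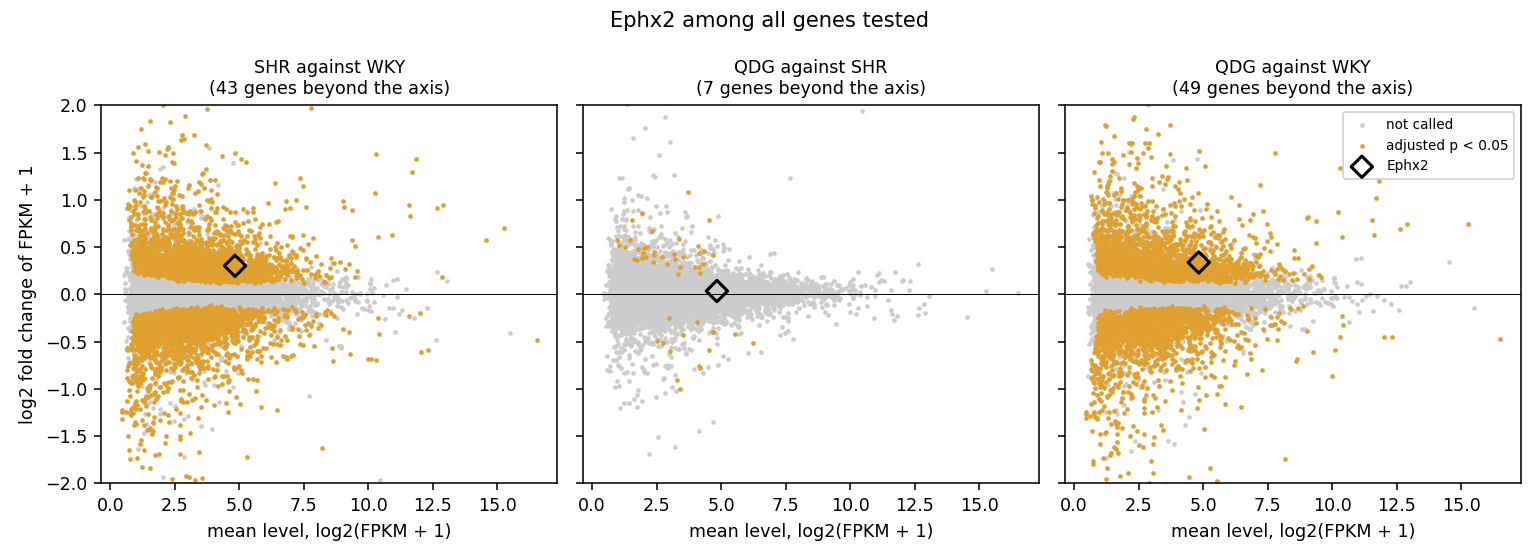
Log2 fold change of FPKM + 1 (vertical axis) against mean level in log2(FPKM + 1) (horizontal axis) for the 17397 genes tested in each of 3 comparisons; orange points passed an adjusted p of 0.05, grey points did not, and the diamond is Ephx2. Ephx2 lies at 0.30 in SHR against WKY and 0.34 in QDG against WKY, inside the band of called genes, and at 0.04 in QDG against SHR; 43, 7 and 49 genes lie beyond the vertical axis in the order of the panels.

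Ephx2 was among the more abundant transcripts. Its mean over all libraries was 27.7 FPKM, which placed it at rank 1972 of the 37262 genes listed and above 88.7% of the genes tested. FPKM is scaled to length, so this order compares levels between genes per length. Its spread within groups was a standard deviation of 0.10 on the log2 scale. The 1000 tested genes nearest to it in mean log2 level (21.97 to 34.3 FPKM) had a median of 0.12, and 33.2% of them varied less than Ephx2. In the SHR and WKY libraries 32.9% of those 1000 genes were called, 197 higher and 132 lower in SHR. Of their called genes 43.5% changed by more than Ephx2. Between QDG-treated SHR and SHR 5 of the 1000 were called.

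Scaling of the libraries could bear on a difference of this size. The gene of highest mean level took 16.0% to 21.1% of all FPKM in the WKY libraries, against 12.8% to 14.9% in SHR and 12.8% to 14.0% after QDG. Since FPKM is relative to the library's total, Ephx2 was also expressed against other totals; the part of this share in the difference was not tested otherwise. With each library scaled to a total of 1000000, Ephx2 had a mean ± SD of 37.5 ± 3.13 for WKY, 47.3 ± 2.80 for SHR and 48.1 ± 5.26 for the treated rats (n = 6 per group). On that scale WKY reached 41.1 and SHR started at 42.7, so these groups stayed apart, while QDG replicate 3 at 39.1 fell within the WKY range. With the 20 most abundant genes left out of the total, the values were 70.7 ± 5.05, 88.0 ± 6.09 and 89.2 ± 6.75 (SD, n = 6 each). Here the highest WKY library was at 76.0, the lowest SHR library at 77.3 and the lowest QDG library at 79.1. The SHR mean was 26.3% above WKY on the first of these scales and 24.4% on the second, beside 24.3% in FPKM as deposited.

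**Figure D3:**
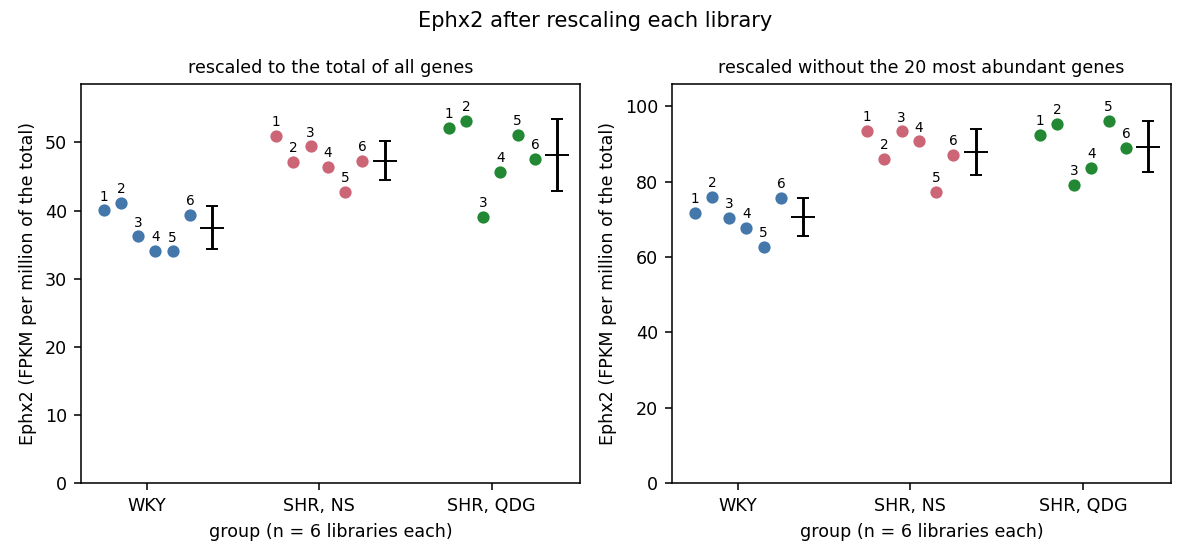
Ephx2 FPKM with each library's total set to 1000000 (vertical axes, from 0) with all genes in the total (left) and without the 20 most abundant genes (right), by group; points are libraries with their replicate numbers and bars are mean ± SD (n = 6). WKY lies below SHR in both panels, and QDG replicate 3 falls inside the WKY range at 39.1 in the left panel but not in the right one.

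Measures of the libraries were set beside Ephx2 within groups. Over deviations from the group means of the 18 libraries, log2(FPKM + 1) of Ephx2 and total FPKM had a Pearson r of -0.398 (permutation p = 0.156, adjusted 0.469) and a Spearman rho of -0.251 (permutation p = 0.356, adjusted 0.969). Without WKY replicate 5 and QDG replicate 3, the 2 farthest in total, r was -0.134. With the share of the most abundant gene r was -0.169 (permutation p = 0.504, adjusted 0.756), rho was -0.117 (permutation p = 0.652, adjusted 0.969) and r without the 2 farthest libraries was -0.103. With the number of genes listed at 0 r was -0.0673 (permutation p = 0.804, adjusted 0.804), rho was -0.0114 (permutation p = 0.969, adjusted 0.969) and r without the 2 farthest was -0.140. These 3 relations form 1 family, and none passed its adjusted threshold. Being taken within groups, they cannot speak to the difference between groups. Total FPKM ranged from 599877 to 676288 in WKY, from 606813 to 636979 in SHR and from 598626 to 663797 in QDG-treated SHR, so the groups overlapped in total. The share of the most abundant gene did not overlap between WKY (from 16.0%) and SHR (up to 14.9%) or QDG-treated SHR (up to 14.0%).

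The difference between SHR and WKY in Ephx2 was called in each of 30 alternative settings. Over these the log2 fold change of SHR against WKY ranged from 0.28, without WKY replicate 4, to 0.33, with each library rescaled to a total of 1000000, and the limma adjusted p from 0.000153 to 0.00245. For QDG against WKY it ranged from 0.31 to 0.38, with the limma adjusted p from 4.80e-05 to 0.00175. For QDG against SHR it ranged from 0.01, without SHR replicate 5, to 0.08, and was called in 0 of 30. Several settings could not move a log2 fold change, among them the other filters, the replicate block and leaving out a library outside the comparison.

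**Figure D4:**
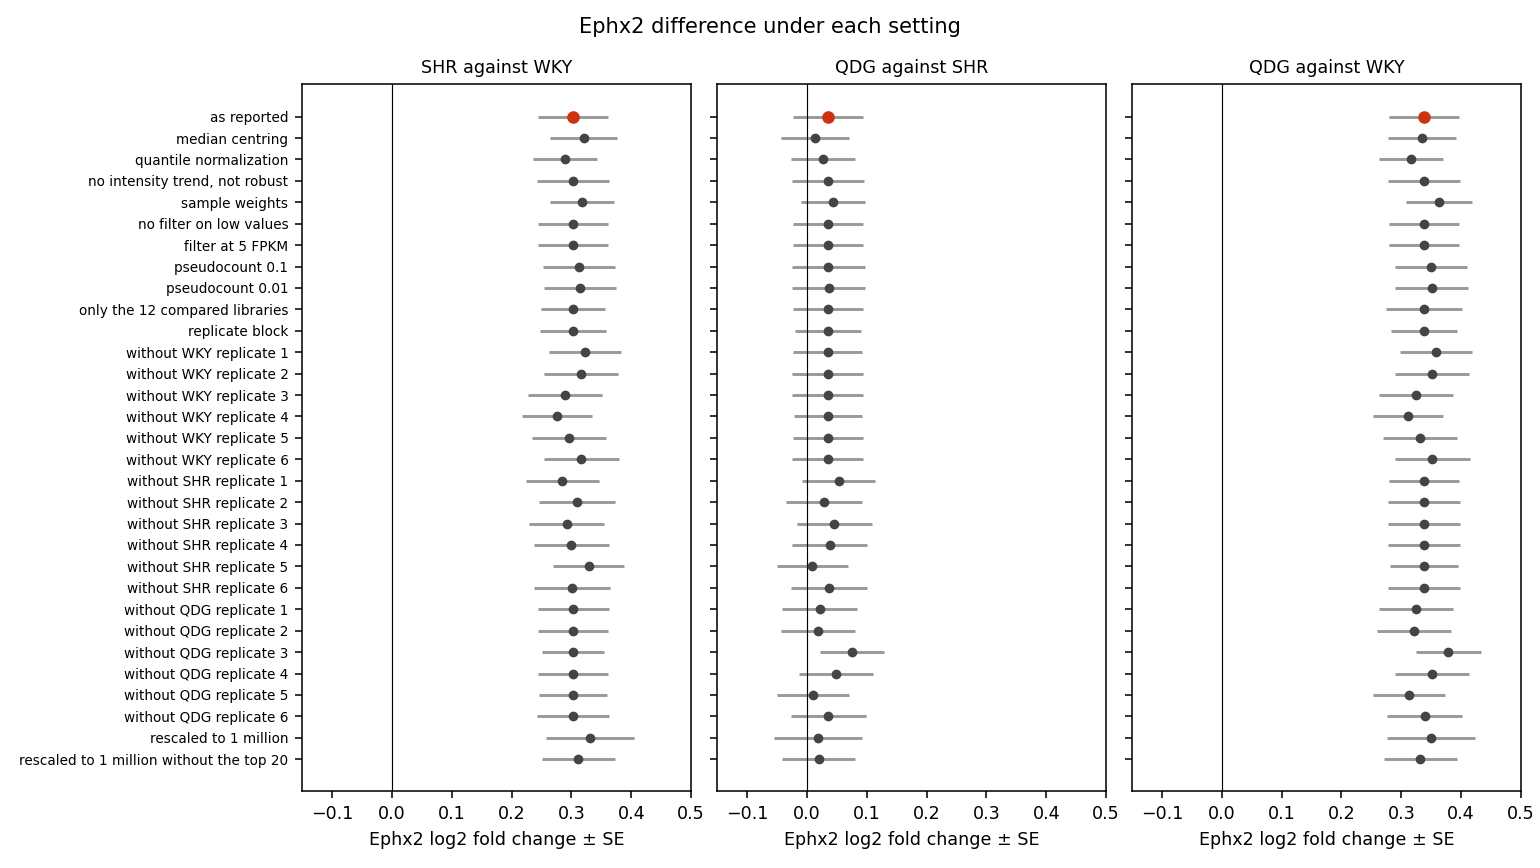
Ephx2 log2 fold change ± SE (horizontal axes) in 3 comparisons as reported (red, top) and under 30 alternative settings (grey, 1 per line). All values of SHR against WKY lie between 0.28 and 0.33 and all of QDG against WKY between 0.31 and 0.38, whereas those of QDG against SHR lie between 0.01 and 0.08 next to the line at 0.

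Genes whose libraries deviated most like Ephx2 within groups were sought over all 17396 other genes tested. The measure was Pearson's r over deviations of log2(FPKM + 1) from the group means in 18 libraries, which removes the differences between groups. It is given as a description, since every gene of a library shares that library's scaling and the highest of many values is large by selection. The median r was 0.11, 65.5% of genes had a positive r, 79 genes exceeded 0.7 and 7 lay below -0.7. The highest was NONRATG017247.2, an identifier of the noncoding catalogue NONCODE, at r = 0.921 (rho = 0.843). It stood at r = 0.953 within WKY, 0.901 within SHR and 0.930 within QDG-treated SHR, and at 0.856 without the 2 libraries in which Ephx2 deviated most. ENSRNOG00000010633 came next at r = 0.880 (rho = 0.804), and at 0.805 without those 2 libraries.

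The 2 genes of highest Pearson r with Ephx2 did not show its difference between SHR and WKY. NONRATG017247.2 was at 10.5 ± 0.854 FPKM for WKY, 10.1 ± 0.958 for SHR and 10.02 ± 1.34 for the treated rats (SD, n = 6 each), with a log2 fold change of -0.05 for SHR against WKY (limma adjusted p = 0.720). ENSRNOG00000010633 was at 223 ± 12.1, 212 ± 13.2 and 234 ± 15.2 FPKM in the same order (SD, n = 6 each), with a log2 fold change of -0.08 for SHR against WKY (limma adjusted p = 0.334). Their groups overlapped in all 3 comparisons, whereas Ephx2 overlapped in QDG against SHR but not in the comparisons with WKY. Of all tested genes, 12.5% did not overlap in SHR against WKY and 10.4% in QDG against WKY. At the other end, NONRATG019773.2 had an r of -0.833 and ENSRNOG00000033653 an r of -0.795, at mean levels of 0.789 to 1.01 and 1.69 to 2.11 FPKM. Without the 2 libraries in which Ephx2 deviated most, these were -0.767 and -0.609. After median centring they became -0.606 and -0.505 and ranked 207 and 526 from the lowest, so they were then no longer the genes of lowest r. The 2 highest, at 0.898 and 0.875, still ranked 1 and 2 after median centring, but by Spearman's rho they ranked 3 and 9.

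**Figure D5:**
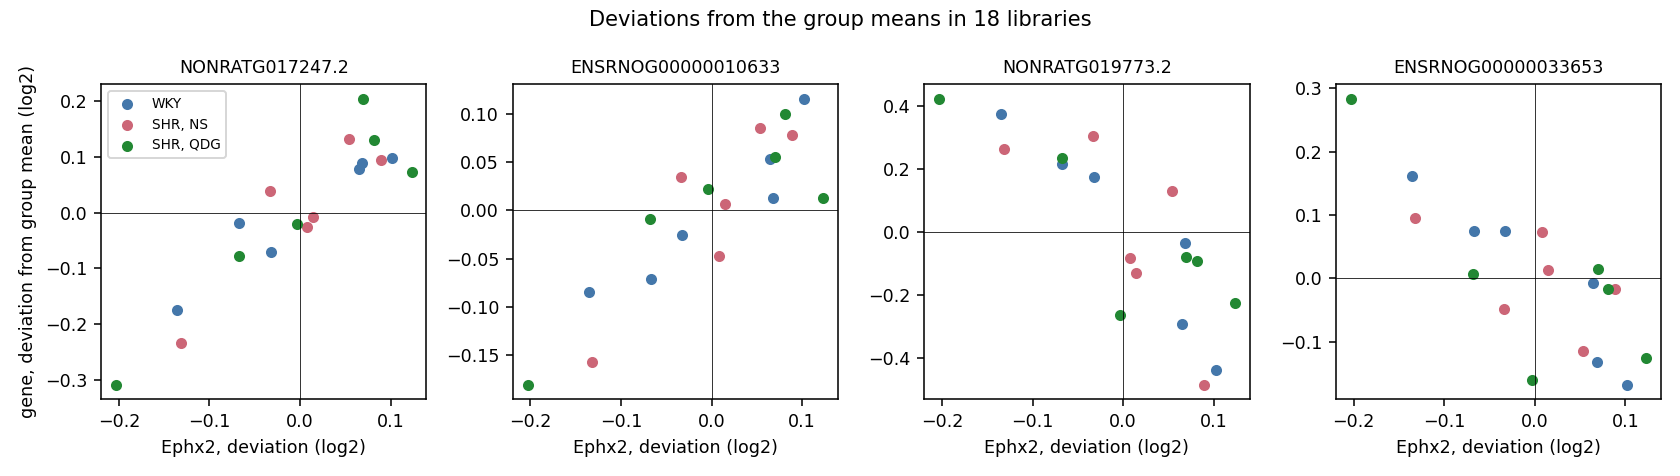
Deviation from the group mean on the log2(FPKM + 1) scale of 4 genes (vertical axes, each with its own range) against that of Ephx2 (horizontal axis) in 18 libraries, coloured by group. The first 2 panels rise with Ephx2 (r = 0.921 and 0.880) and the last 2 fall (r = -0.833 and -0.795); the point farthest to the left is QDG replicate 3.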

How the data were processed

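The deposited values were taken as FPKM, scaled by the authors; the files name no unit, and this one rests on fractional values and on totals that vary by library, and a TPM table with genes removed is also possible. The submitters' processing notes name limma; the aligner, counter, build, annotation and strand setting were not given in the sources used here, and absolute depth is unknown. The filter kept the 17397 genes that reached 1 FPKM in 6 or more of 18 libraries, and their log2(FPKM + 1) was fitted with limma 3.58.1 (R 4.3.3) using trend and robust moderation, a mean per group, 3 contrasts and Benjamini-Hochberg adjustment at 0.05. The fit was tested on simulated data with independent noise for each gene and planted changes larger than that of Ephx2. Changes of its size and deviations shared by a library were not covered. Exact permutation tests ran over 12 libraries on the same scale, in Python 3.11.15 with numpy 2.4.6. Relations to library measures used 100000 permutations within groups (scipy 1.17.1 for ranks). Ephx2 and the lists were chosen with earlier results of these data known, which the exact permutation p-values do not allow for. The 10 pathway lists and 10 marker lists were not tested for lack of symbols. The rule for named genes gave Ephx2 and, without symbols, the 2 identifiers of highest and of lowest likeness. Likeness without removing group means is left out, because the difference of Ephx2 between WKY and the SHR strain would enter r. Among the alternatives, the 2 rescalings to a total were chosen after seeing the data; the others were scalings, limma options, filters, pseudocounts, the 12 compared libraries, a replicate block and each library left out.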

Additional observations from a re-analysis of the deposited data

Results flagged for a closer look

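Single libraries stood apart from the other 5 of their group in 2 of the 24 sets of 6 values looked at. About 1 set in 20 does so by chance, a rate that need not hold for genes chosen by their r with Ephx2. ENSRNOG00000033653, which varied against Ephx2, was at 2.26 FPKM in QDG replicate 3, the library with the lowest Ephx2 of that group. That gene was chosen for its negative r with Ephx2 in these same libraries, so its high value there is not a separate result. In QDG replicate 4 the number of genes listed at 0 was 6245, and the rest of its group had 6520 to 6662; its Ephx2 level of 28.6 FPKM was inside the range of that group. Ephx2 itself was not far from its group in any library.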

How the results depend on the processing

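For Ephx2, all 3 comparisons kept their direction and their side of the threshold in 30 of 30 settings each, several of which could not move the log2 fold change. The count of all genes called between QDG-treated SHR and SHR was 51, and became 79 with quantile normalization, 77 with median centring, 104 with sample weights, 30 with no filter on low values and 27 with libraries rescaled to a total of 1000000. It ranged from 29 to 69 when 1 library was left out, and leaving out SHR replicate 4 (30), SHR replicate 6 (29), QDG replicate 2 (32), QDG replicate 3 (31) or QDG replicate 6 (30) moved it by over 1.5 times. The cause was not tested. The counts for SHR against WKY (2969 to 4924) and QDG against WKY (2478 to 4281) were within 1.5 times their reported values. With a replicate block 4760 genes were called in SHR against WKY, 40 in QDG against SHR and 4028 in QDG against WKY. No call of Ephx2 changed. Its log2 fold changes stayed at 0.30, 0.04 and 0.34 in that order by design. Each replicate number occurs once per group, so a block can move only the SE and p-value. Same-numbered libraries deviated together little, with correlations of -0.05 to 0.16, -0.06 to 0.13 and -0.04 to 0.19 over genes in that order, and 4 of 18 libraries correlated best with their own number, so the numbers were not taken as pairs. Likeness values kept their sign with Spearman's rho and with median centring. Without symbols the counts of pathway genes could not be run. Absolute depth is unknown, so what it limits cannot be stated.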
